A study of Mus musculus with 57 samples.

Results

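The immediate early genes described here were Fos, Fosb, Junb, Egr1, Egr2, Egr3, Arc, Nr4a1, Dusp1 and Ier2, chosen by name with no measured value in the rule. The array carried all 10 genes on 11 probesets, of 22626 probesets and 12393 genes with a single symbol in all. Egr2 was the only member with more than 1 probeset. Of these, 10 probesets, 1 per gene, reached a log2 intensity of 4.5 on at least 1 array and were tested, and the dimmer Egr2 probeset stayed below 4.5 on all 57 arrays.

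Male C57BL/6NCrl mice, an inbred strain that drinks ethanol readily, had a bottle of 10% (w/v) ethanol and a bottle of water in the home cage for 18 hours a day, followed by 6 hours with water alone. Each mouse had 16 such sessions, in blocks of 4 with 4 days of abstinence between them. Tissue was taken 6 days after the last session from the nucleus accumbens (NAc), the prefrontal cortex (PFC) and the ventral midbrain (VMB, the ventral tegmental area of the labels). There were 19 arrays per region, with 1 mouse per array. The paper states that RNA of each of 19 animals was hybridized once for each region, by which the regions share mice. The labels hold 20 replicate numbers, 17 of them in all 3 regions, so numbers and animals do not match fully. The fits between regions treated the arrays as independent, apart from an alternative with the replicate number as block. All groups had the ethanol bottle, so the comparisons were between regions and between mice, and no water-only mice entered them. Ethanol intake of single mice was not used here, so the relation of these genes to intake is not reported.

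Immediate early genes are transcribed within minutes of synaptic activity, hormones or growth factors, without waiting for new protein to be made. Calcium and MAP kinase signals act on transcription factors that are already bound near these genes, among them CREB at the cAMP response element (CRE) and SRF at the CArG box. Some members encode transcription factors (Fos, Fosb and Junb of AP-1, the zinc finger proteins Egr1 to Egr3, and the orphan nuclear receptor Nr4a1). Arc works at the synapse, where it takes part in removing AMPA receptors from the membrane, Dusp1 is a phosphatase that switches MAP kinases off, and Ier2 is a less studied nuclear protein. They are widely used as marks of recently active neurons, and here they were read 6 days after the last ethanol access.

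The RefSeq promoter table (build GRCm38.p6, 250 bases before to 50 after a transcription start) held 6 members, Fos, Fosb, Junb, Egr2, Nr4a1 and Dusp1. Egr1, Egr3, Arc and Ier2 had no entry. All 6 windows held the CRE core TGACG on at least 1 strand, against 20.8% of the 32851 promoters in that table. The full CRE TGACGTCA, which contains the core on both strands, was found in 1 of the 6 (Dusp1) and in 1.79% of all promoters. The CArG box was found in 1 of the 6 (Egr2) and in 1.63% of all. The AP-1 sequence TGANTCA (N being C or G) was found in 0 of the 6 and in 5.2% of all. The EGR sequence GCGNGGGCG (N being G or T) was found in 2 of the 6 (Fosb and Nr4a1) and in 3.47% of all, on either strand. It overlapped none of the CRE cores. These are matches of letters in a short window and say nothing of binding. The 4 windows shown belong to members of the PFC pairs with the highest r (Arc with Dusp1, Fos with Egr2 and Arc with Nr4a1). Arc has no window, and those of Junb and Fosb are not shown. Capitals mark the CRE core and the CArG box on either strand. The Fos window was chr12:85473640-85473939, plus strand, that of Egr2 chr10:67537619-67537918, plus strand (1 of its 5 listed starts), that of Nr4a1 chr15:101266596-101266895, plus strand, and that of Dusp1 chr17:26508423-26508722, minus strand. Relative to the start site, the cores of Fos began at -129 and -66, and the CArG box of Egr2 began at -72, between CRE cores beginning at -111 and -55. The full CRE of Dusp1 began at -143.
Fos: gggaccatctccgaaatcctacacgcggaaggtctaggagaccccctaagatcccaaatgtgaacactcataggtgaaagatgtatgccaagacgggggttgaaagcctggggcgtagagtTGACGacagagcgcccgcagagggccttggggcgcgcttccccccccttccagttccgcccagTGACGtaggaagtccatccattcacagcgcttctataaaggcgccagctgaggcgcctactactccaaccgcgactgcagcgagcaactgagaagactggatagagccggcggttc
Egr2: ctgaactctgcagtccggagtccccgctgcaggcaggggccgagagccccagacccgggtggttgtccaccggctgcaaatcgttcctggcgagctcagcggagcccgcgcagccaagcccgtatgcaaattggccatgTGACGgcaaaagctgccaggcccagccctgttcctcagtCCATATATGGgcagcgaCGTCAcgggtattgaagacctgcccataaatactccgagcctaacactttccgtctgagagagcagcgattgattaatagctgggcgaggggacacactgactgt
Nr4a1: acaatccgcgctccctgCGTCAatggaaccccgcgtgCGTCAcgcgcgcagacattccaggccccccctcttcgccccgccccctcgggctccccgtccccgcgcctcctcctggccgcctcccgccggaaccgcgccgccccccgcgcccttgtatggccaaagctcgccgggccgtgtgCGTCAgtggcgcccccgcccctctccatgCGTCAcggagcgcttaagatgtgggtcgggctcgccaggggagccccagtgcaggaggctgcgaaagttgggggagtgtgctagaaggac
Dusp1: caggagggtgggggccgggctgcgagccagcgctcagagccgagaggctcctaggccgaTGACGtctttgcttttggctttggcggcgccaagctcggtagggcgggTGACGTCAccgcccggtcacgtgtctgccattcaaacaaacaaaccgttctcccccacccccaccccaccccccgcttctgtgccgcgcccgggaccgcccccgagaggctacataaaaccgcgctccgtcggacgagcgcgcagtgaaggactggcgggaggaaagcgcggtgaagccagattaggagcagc

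The deposited values were log2 intensities whose array medians lay at 6.26 to 6.32 in NAc, 5.66 to 5.70 in PFC and 5.79 to 5.86 in VMB. Levels were therefore compared between regions after quantile normalization over all 57 arrays, called the joint scale here, while the spread and the correlations within a region used the deposited values. Genes were called at an adjusted p under 0.01 (limma, Benjamini-Hochberg over 19815 probesets). The labels of 1 PFC array (replicate 20) conflict, its title naming PFC and its region field the ventral tegmental area. Its values correlated most closely with another PFC array. Within their regions the lowest mean correlations with the other arrays were those of NAc replicate 1 (0.982), PFC replicate 3 (0.989) and VMB replicate 1 (0.985). Marker genes mostly went with the labels. Striatal projection neuron markers were higher in NAc than in PFC for 5 of 5 (38.6% of all tested probesets). Against PFC, 4 of 4 cortical excitatory neuron markers were lower in VMB (35.2% of all) and 5 of 6 dopamine neuron markers higher (37.7% of all). In NAc against PFC, 3 of 4 cortical markers were lower and 1 higher, and 4 of 6 dopamine markers were higher.

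Egr1, Junb and Nr4a1 were low in the ventral midbrain. In VMB they were 4.41-fold (Egr1), 4.68-fold (Junb) and 4.15-fold (Nr4a1) lower than in PFC, with no overlap between the arrays. Against NAc they were 3.84-fold, 3.02-fold and 2.98-fold lower, again with no overlap, and these directions held on the deposited and the median-centred values. Fosb and Egr2 reached 4.5 on fewer than 10 of the 19 arrays in PFC and on 0 in VMB and were tested only through the regions where they are brighter, so counts between regions cover the other 8 members, which reached 4.5 on at least 10 arrays of every region. Junb did so on 11 VMB arrays and the remaining 7 on all 19. Of these 8, 4 were called lower in VMB than in PFC (Junb, Egr1, Arc and Nr4a1) and 0 higher. Over the 14545 probesets that reached 4.5 on as many arrays of both regions 74.6% were called, 37.1% as lower in VMB and 37.6% as higher, so that most genes of the array differ between these tissues. The differences reached 1 on the log2 scale for 3 of the 8 members against 9.8% of those probesets, and the groups did not overlap for the same 3 (Junb, Egr1 and Nr4a1) against 25.5%. With Fosb and Egr2 counted too, as a description, 6 of 10 were called lower and 0 higher (72.8% of all tested probesets called, 35.2% as lower and 37.7% as higher), and Fosb made the other counts 4 of 10 (9.47% with a difference of at least 1, 23.9% without overlap).

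**Figure D1:**
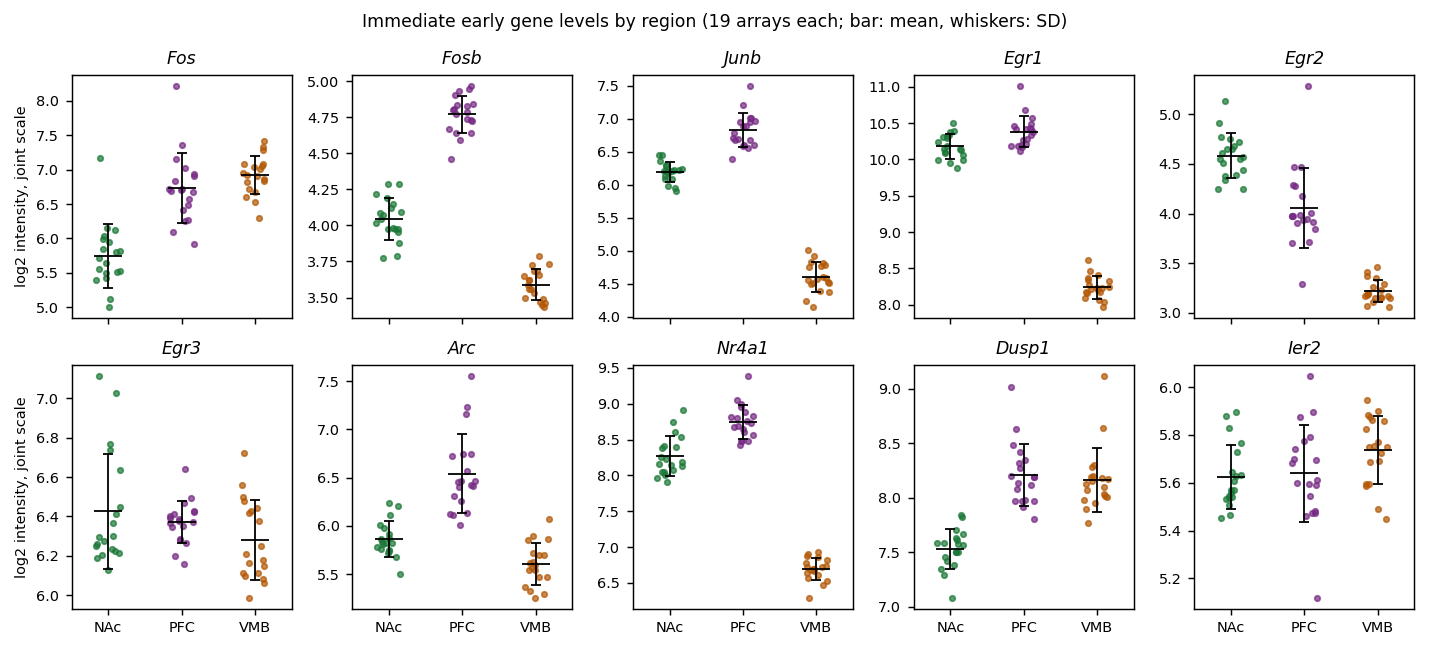
Levels of the 10 immediate early genes by region: each point is 1 array, the y axis is log2 intensity on the joint scale (with its own range in each panel, not starting at 0), the black bar is the mean and the whiskers are the SD of 19 arrays. Junb, Egr1 and Nr4a1 in VMB lie below every array of the other regions, while Egr3 and Ier2 overlap in all of them.

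Junb, an AP-1 partner of the Fos proteins, ranged on the joint scale from 5.90 through a median of 6.21 to 6.46 in NAc, from 6.39 through 6.79 to 7.50 in PFC and from 4.15 through 4.57 to 5.01 in VMB. No VMB array reached the lowest array of NAc or PFC. The difference from PFC was -2.23 ± 0.07 (SE, adjusted p = 1.51e-37, limma) in VMB and -0.63 ± 0.07 (adjusted p = 2.19e-12) in NAc. On the deposited values the NAc difference was -0.02 and was not called. Fosb, whose truncated form accumulates with repeated stimulation, was the dimmest AP-1 member and reached 4.5 on the deposited scale on 9 NAc, 8 PFC and 0 VMB arrays. Its joint values ran from 3.77 through 4.05 to 4.29 in NAc, from 4.46 through 4.79 to 4.97 in PFC and from 3.44 through 3.59 to 3.79 in VMB. No size is given for the Fosb difference of VMB, where no array reached 4.5. The NAc difference from PFC was -0.72 ± 0.04 (SE, adjusted p = 2.51e-23, limma) but turned to 0.02 on the deposited values. Full-length and truncated Fosb were not told apart here.

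Fos, the partner of the Jun proteins in AP-1, had another order. Its joint values ran from 5.01 through 5.72 to 7.16 in NAc, from 5.92 through 6.70 to 8.22 in PFC and from 6.30 through 6.93 to 7.42 in VMB. All 3 regions overlapped, and 1 NAc array stood far above the other 18. Fos was lower in NAc than in VMB by a difference of -1.17 ± 0.13 (SE, adjusted p = 9.89e-12, limma) and lower than in PFC by a difference of -0.98 ± 0.13 (adjusted p = 1.93e-09). On the deposited values the NAc to PFC difference shrank to -0.36 and was not called. VMB and PFC were neighbours that did not pass the test for Fos, with a difference of 0.19 ± 0.13 (adjusted p = 0.199). Of the 8 members counted, Fos and Dusp1 were called lower in NAc than in VMB on the joint scale and 4 were called higher. Of the 15705 probesets counted in the same way 76.8% were called, 39.3% as lower and 37.5% as higher in NAc. The number of calls therefore does not set the members apart. On the deposited values Fos kept its call (-0.65), while Dusp1 was not called (-0.04, adjusted p = 0.644, limma).

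Egr1, the most widely mapped zinc finger gene of activity, ranged from 9.88 through 10.14 to 10.50 in NAc, from 10.11 through 10.38 to 11.02 in PFC and from 7.97 through 8.23 to 8.61 in VMB on the joint scale. Its difference from PFC was -2.14 ± 0.06 (SE, adjusted p = 1.504e-40, limma) in VMB. The NAc difference from PFC was -0.20 ± 0.06 (adjusted p = 0.00157) and turned to 0.48 on the deposited values, so that the order of NAc and PFC is not settled for Egr1. Egr2, on its brighter probeset, ran from 4.24 through 4.57 to 5.14 in NAc, from 3.29 through 3.97 to 5.29 in PFC and from 3.06 through 3.18 to 3.46 in VMB. It reached 4.5 on the deposited scale on 19 NAc, 1 PFC and 0 VMB arrays. All NAc arrays lay above all VMB arrays, while NAc and PFC overlapped. Since Egr2 entered the tests through NAc, its calls are not used as support for a difference. The second Egr2 probeset stayed below 4.5 throughout. Egr3 was not called in any pair on the joint scale, with differences of 0.05 for NAc against PFC (adjusted p = 0.467), -0.09 for VMB against PFC (adjusted p = 0.216) and 0.14 for NAc against VMB (adjusted p = 0.0467). On the deposited values the VMB to PFC difference turned to 0.02. There Egr3 was called higher in NAc than in PFC (0.67) and than in VMB (0.64). The medians over all tested probesets for these 2 comparisons were 0.72 and 0.55. Median-centred values called NAc against VMB alone (0.18, adjusted p = 0.00723, limma). In NAc the highest Egr3 array stood at 7.11 on the joint scale against a median of 6.30.

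Nr4a1, an orphan nuclear receptor, ran from 7.91 through 8.19 to 8.91 in NAc, from 8.42 through 8.73 to 9.38 in PFC and from 6.29 through 6.69 to 6.93 in VMB. Its difference from PFC was -2.05 ± 0.07 (SE, adjusted p = 1.38e-34, limma) in VMB. In NAc it was -0.48 ± 0.07 (adjusted p = 2.91e-08) on the joint scale and 0.18 on the deposited values. Arc ran from 5.50 through 5.82 to 6.24 in NAc, from 6.01 through 6.46 to 7.55 in PFC and from 5.26 through 5.59 to 6.07 in VMB. The difference from PFC was -0.94 ± 0.09 (adjusted p = 2.44e-14) in VMB and -0.68 ± 0.09 (adjusted p = 1.05e-09) in NAc. On the deposited values the NAc difference was -0.08 and was not called. Dusp1 ran from 7.09 through 7.57 to 7.85 in NAc, from 7.80 through 8.19 to 9.01 in PFC and from 7.77 through 8.13 to 9.11 in VMB. It was lower in NAc than in PFC by a difference of -0.68 ± 0.08 (adjusted p = 5.17e-11), which fell to -0.03 on the deposited values. PFC and VMB did not pass the test for Dusp1 (a difference of -0.04 ± 0.08, adjusted p = 0.636, and 0.01 on the deposited values). Ier2 was the member with the closest mean levels across the regions, 5.63 in NAc, 5.64 in PFC and 5.74 in VMB on the joint scale. Its medians were 5.57, 5.61 and 5.75, and it had no call in any pair on that scale. On the deposited values its differences from PFC were 0.61 in NAc and 0.28 in VMB.

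For NAc against PFC, 6 of the same 8 members were called lower and 0 higher on the joint scale, where 74.3% of 14871 probesets were called, 37.7% as lower and 36.6% as higher in NAc. A difference of at least 1 was reached by 0 members and by 6.98% of those probesets, and the groups did not overlap for 0 members against 24.1%. With Fosb and Egr2 counted too, 7 of 10 were called lower and 1 higher (72.5% of all tested probesets called, 33.9% as lower and 38.6% as higher), 0 differed by at least 1 (6.48%) and 1 did not overlap (Fosb, 21.9%). For this pair the median of all differences was 0.03 on the joint scale and 0.72 on the deposited values. None of the 6 kept its call and direction on the joint, the deposited and the median-centred values. For VMB against PFC all 4 called members kept both on the 3 scales, and for NAc against VMB 4 of 6 did (Fos, Junb, Egr1 and Nr4a1). NAc against VMB had 76.8% of 15705 probesets called, 37.5% as higher and 39.3% as lower in NAc. The groups did not overlap for 3 of the 8 members (Junb, Egr1 and Nr4a1) against 25.4%, and 4 had a difference of at least 1 against 9.93%. With Fosb and Egr2 counted too, 6 of 10 were called higher and 2 lower in NAc (74.7% of all tested probesets called, 39% as higher and 35.7% as lower), and Egr2 made these counts 4 of 10 without overlap (23.1%) and 5 of 10 with a difference of at least 1 (9.45%).

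The regions are bulk tissue, in which fewer cells of a type and less RNA per cell cannot be told apart. The mean joint level of the 4 cortical excitatory neuron markers lay between 4.21 and 4.82 over the VMB arrays and between 7.54 and 7.94 over the PFC arrays. All 8 oligodendrocyte markers were higher in VMB than in PFC, as were 37.7% of all tested probesets. The mean level of these markers was 10.83 to 11.16 in VMB against 7.77 to 9.14 in PFC. The part of this cell makeup in the member differences was not tested.

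Other genes of the same response followed mixed patterns between regions. Of 22 other immediate early transcription factors, 11 were called lower and 5 higher in VMB than in PFC, with a median difference of -0.10 against 0.04 over all genes. Of 26 activity-regulated signalling and effector genes, 14 were lower and 9 higher (median -0.35). Of 20 upstream kinases and transcription factors, 16 were lower and 2 higher (median -0.67). Over all tested probesets 35.2% were called lower and 37.7% higher in VMB than in PFC. The lowest in VMB relative to PFC were the kinase Camk2a (a difference of -4.77 ± 0.12), the transcription factor Mef2c (-4.01 ± 0.08) and the phosphatase Dusp14 (-2.89 ± 0.06). The highest were the orphan nuclear receptor Nr4a2, which dopamine neurons need for their identity (1.19 ± 0.09), Rasd1 (1.10 ± 0.09) and Tiparp (0.84 ± 0.05). NAc stood above PFC most for the opioid peptide genes Penk (3.40 ± 0.06) and Pdyn (2.40 ± 0.05) and for Nr4a2 (2.73 ± 0.09). It stood below PFC most for Camk2a (-3.52 ± 0.12), the growth factor gene Bdnf (-1.98 ± 0.07) and the prostaglandin synthase Ptgs2 (-1.96 ± 0.05). Against VMB, NAc was highest for Pdyn (3.35 ± 0.05), Penk (2.79 ± 0.06) and Mef2c (2.55 ± 0.08) and lowest for Zfp36 (-0.95 ± 0.05), Prkaca (-0.91 ± 0.08) and Rasd1 (-0.75 ± 0.09). All of these differences are on the joint scale with their SE and were called (largest adjusted p = 1.80e-10, limma).

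Between mice, Fos was among the most variable transcripts of the array. The SD of Fos on the deposited scale reached 0.47 (NAc), 0.51 (PFC) and 0.30 (VMB), each over 19 mice, against medians over all tested probesets of 0.17, 0.14 and 0.17. These SDs stood at the 99.1, 99.5 and 91.3 percentiles of all tested probesets. Without NAc replicate 20 the NAc SD was 0.31 (the 91.8 percentile), and without PFC replicate 3 the PFC SD was 0.36 (the 98.7 percentile). The lowest, median and highest Fos values were 5.47, 6.05 and 7.63 in NAc. For PFC these were 5.69, 6.46 and 8.02, and for VMB 6.10, 6.79 and 7.31. The lowest and the highest mouse differed 4.48-fold in NAc, 5.03-fold in PFC and 2.31-fold in VMB. Without NAc replicate 20 the NAc fold was 2.09, and without PFC replicate 3 the PFC fold was 2.65. In PFC 6 of the 10 members had an SD above the 90th percentile (Fos, Egr2, Arc, Dusp1, Junb and Nr4a1), where 10% of all probesets lie by definition, and 4 without replicate 3 (Fos, Egr2, Arc and Dusp1). In NAc 1 member did (Fos) and in VMB 2 (Fos and Dusp1), or 1 (Fos) without VMB replicate 10. In PFC Egr2 reached 4.5 on 1 array only. Egr3 had an opposite ranking, at the 82.4 percentile in NAc and the 23.6 percentile in PFC. No member's spread was called different between the regions (0 of 10, limma on absolute deviations, 0.333% of all probesets called), and 2 had an unadjusted p under 0.05, Arc (0.0352) and Egr2 (0.0436).

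**Figure D2:**
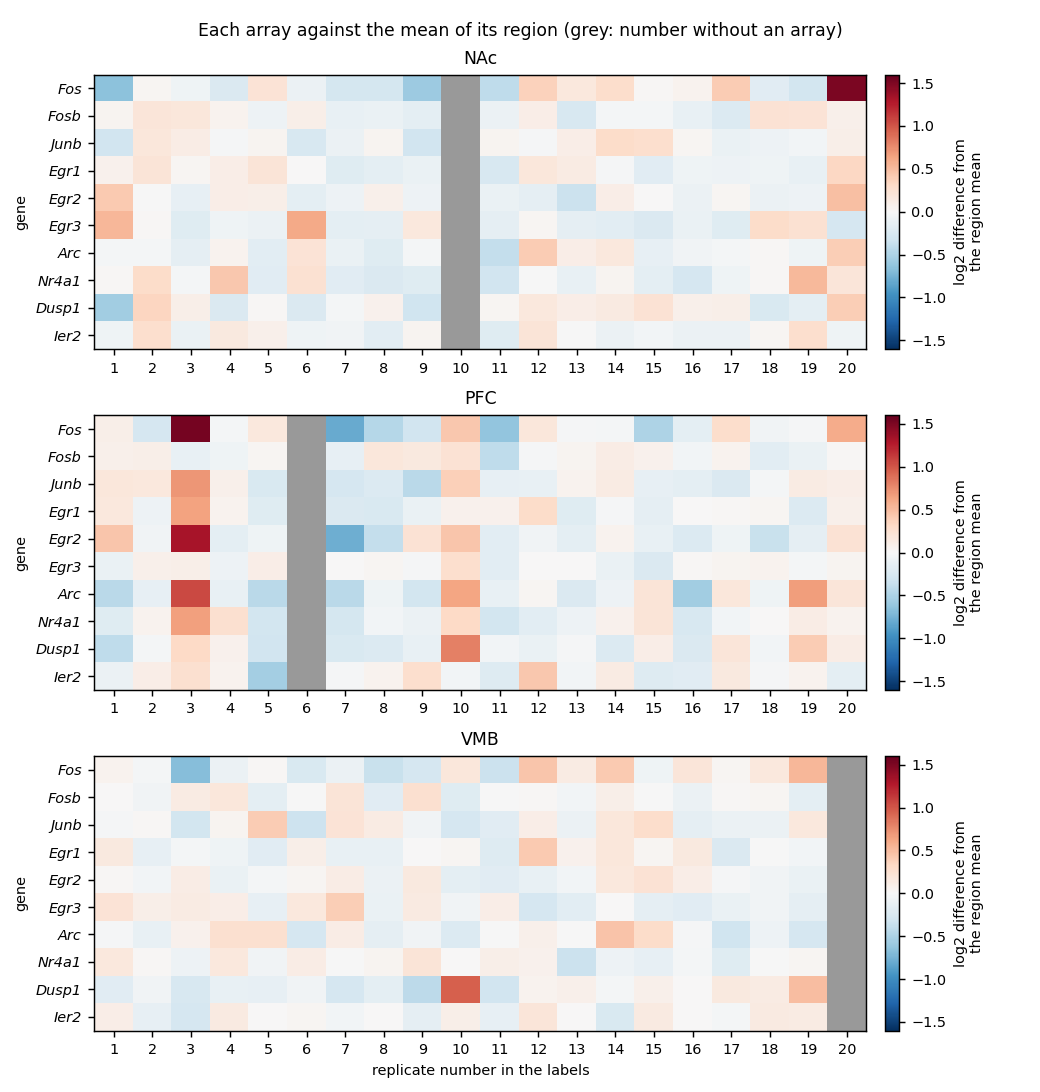
Each member in each array as a log2 difference from the mean of its region, with replicate numbers on the x axis and genes on the y axis (red above, blue below the mean, grey where a region has no array of that number). PFC replicate 3 shows 6 members at their highest, NAc replicate 20 shows Fos at 1.5 above the mean, and Dusp1 is highest in replicate 10 of both PFC and VMB.

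Single arrays held many of the extreme values. PFC replicate 3 was the highest of the 19 PFC arrays for 6 of 10 members and among the highest 3 for 9, against 13.1% and 26.5% of all tested probesets. It read 8.02 for Fos (1.53 above the PFC mean), 5.03 for Egr2 (1.32 above), 7.35 for Arc (1.05 above), 7.30 for Junb (0.71 above), 9.17 for Nr4a1 (0.66 above) and 10.79 for Egr1 (0.65 above). Fosb did not share this, with a difference from the mean of -0.12 and rank 16 of 19. The array with the same number in VMB was the lowest of its region for Fos, at 6.10. NAc replicate 20 was the highest NAc array for 4 members (Fos, Egr1, Egr2 and Dusp1) and for 5.35% of all probesets, and read 7.63 for Fos, 1.5 above the NAc mean. PFC replicate 10 was the highest for 3 members (Fosb, Egr3 and Dusp1) and among the highest 3 for 8, against 7.11% and 19.5% of all probesets. No VMB array was the highest for more than 2 members.

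The median correlation among the members was highest in PFC, although no difference between regions was called. Over 45 pairs the median r across the 19 PFC mice was 0.395, with 43 pairs above 0, against 0.174 and 30 pairs in NAc and 0.044 and 24 pairs in VMB. Pairs with r of at least 0.7 numbered 9 of 45 in PFC, where 0.238% of all probeset pairs reached it. In NAc they numbered 2 of 45, against 5.43% of all pairs, and in VMB 0 of 45, against 1.93%. Without PFC replicate 3 the PFC count fell to 3 of 45 and the median r to 0.304, with 42 pairs above 0. Without NAc replicate 20 the NAc median r was 0.107, and without VMB replicate 10 the VMB median r was 0.085. An r of at least 0.5 was reached by 16 PFC pairs, against 3.01% of all PFC probeset pairs, by 7 NAc pairs (16%) and by 3 VMB pairs (9.13%). Without those arrays the counts were 5 in PFC, 8 in NAc and 4 in VMB, so that PFC was not the highest by this count. Ranks gave 11 PFC pairs with rho of at least 0.5. These counts include members that lay below the filter level on most arrays of a region. They were Fosb in all 3 regions and Egr2 in PFC and VMB. Without these members, 6 of 28 PFC pairs had r of at least 0.7, with a median r of 0.468. Leaving out PFC replicate 3 as well gave 3 pairs and a median r of 0.299. In NAc 2 of 36 pairs reached 0.7 (median r 0.170), and in VMB 0 of 28 (median r 0.041). Pairs were called where the regressions in both directions passed an adjusted p under 0.01 over all probesets (limma, 135 pairs in the 3 regions).

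**Figure D3:**
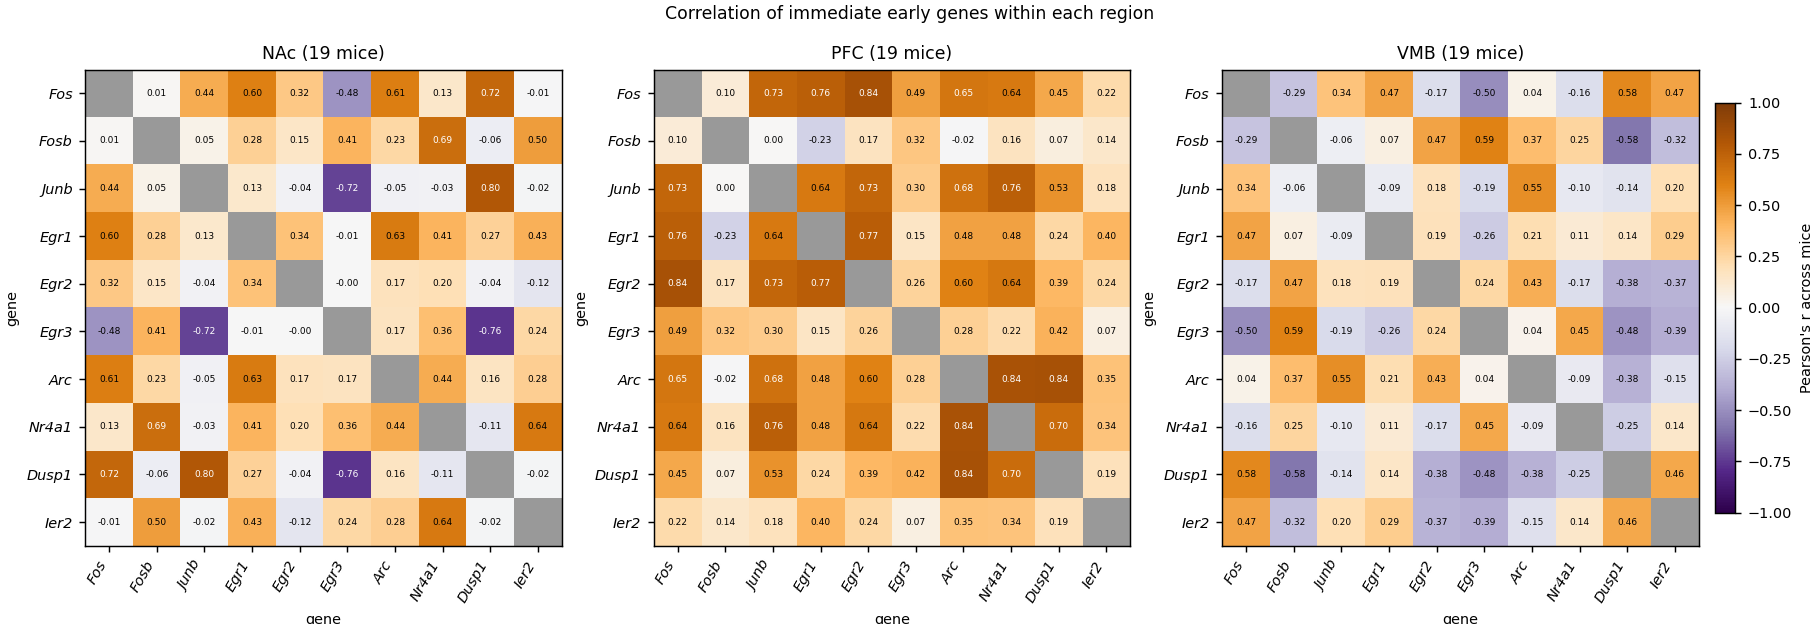
Pearson's r between each pair of members across the 19 mice of NAc, PFC and VMB (deposited log2 values), with both axes listing genes and the colour scale running from -1 to 1. In PFC a block of Fos, Junb, Egr1, Egr2, Arc, Nr4a1 and Dusp1 is mostly positive, while in NAc and VMB positive and negative values mix, with Egr3 against Dusp1 at -0.76 in NAc.

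In PFC 1 of 45 pairs was called, Fos with Egr2 (r = 0.841, permutation p = 6.00e-05, rho = 0.667, adjusted p = 0.00749), against 0.0177% of all regressions on the members. Without PFC replicate 3 it had r = 0.656 and an adjusted p of 0.634. Egr2 reached 4.5 in PFC on replicate 3 alone, so the call rests on a probeset below the filter level on the other 18 arrays. Arc with Dusp1 had nearly the same r (0.843, permutation p = 5.00e-05, rho = 0.836) and an adjusted p of 0.0152. Without replicate 3 it had r = 0.889 and was the 1 pair called (adjusted p = 0.001598). Leaving out the 2 arrays with the most extreme Arc values gave r = 0.879. Arc with Nr4a1 had r = 0.836 (permutation p = 3.00e-05, adjusted p = 0.0186), and 0.728 without replicate 3. Egr1 with Egr2 (0.770), Junb with Nr4a1 (0.762) and Fos with Egr1 (0.758) followed, and without replicate 3 these stood at 0.493, 0.585 and 0.485. Fosb had a median r of 0.097 with the other members in PFC, while Fos and Nr4a1 had the highest (0.640 each).

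**Figure D4:**
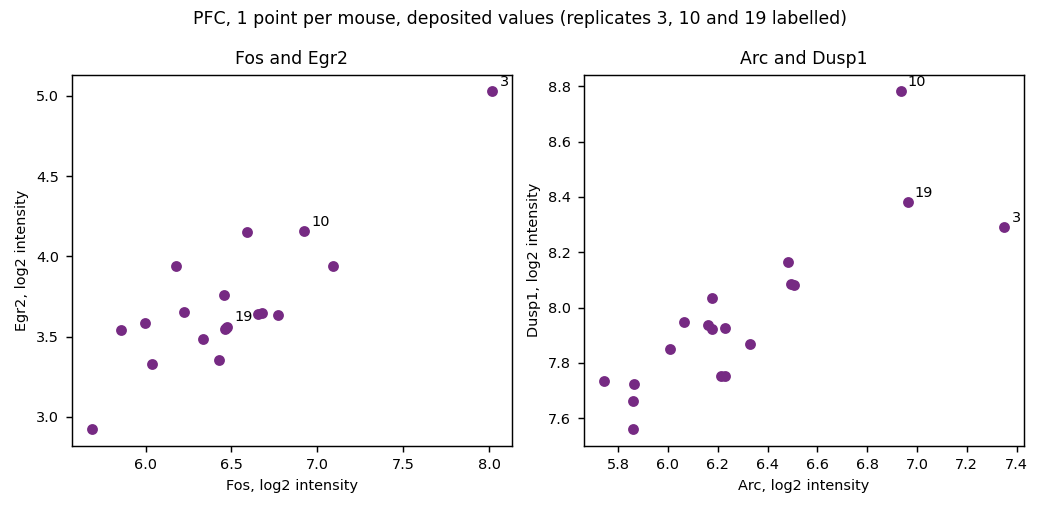
Fos against Egr2 (left) and Arc against Dusp1 (right) in PFC, 1 point per mouse in deposited log2 intensity, with replicates 3, 10 and 19 labelled. Replicate 3 lies apart from the rest for Fos and Egr2, while for Arc and Dusp1 the other 18 mice follow the same slope (r = 0.889 without it).

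In NAc 3 of 45 pairs were called, all within Junb, Egr3 and Dusp1, where 9.62% of all regressions on the members were called. Junb rose with Dusp1 (r = 0.802, permutation p = 5.00e-05, adjusted p = 0.00268), and Egr3 fell as Junb (r = -0.722, adjusted p = 0.00405) and Dusp1 (r = -0.760, adjusted p = 0.000642) rose. The leading principal component over NAc arrays held 51.2% of their variance, and Egr3 (r = -0.931), Dusp1 (0.802) and Junb (0.710) followed it. With that component in the fit 0 pairs were called, and 47.2% of all probesets were called with Egr3 without it. Ranks, quantile normalization within the region and leaving out the 2 arrays farthest from the median also gave 0 called pairs each. Leaving out NAc replicate 20 kept the 3 called pairs, with 8.5% of all regressions called. The mean of the choroid plexus and ependyma markers had r = -0.922 with the same component and its array means lay between 4.49 and 5.06 in NAc. Fos with Dusp1 in NAc had r = 0.723 (permutation p = 0.000580) and an adjusted p of 0.103. In VMB 0 of 45 pairs were called, against 1.6% of all regressions on the members, 3174 of those 3178 with Egr3, which had r = -0.818 with the first component there. Fos with Dusp1 had r = 0.577 (permutation p = 0.0108, rho = 0.733) in VMB, and 0.716 without replicate 10.

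At an unadjusted p under 0.05 in both directions (limma) there were 12 pairs in NAc, 20 in PFC and 7 in VMB, and 25.4%, 9.2% and 13.9% of all regressions on the members had such a p in 1 direction.

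Whether a pair was tied more closely in one region than in another was tested as a difference of slopes. No pair was called in any of the 3 region pairs (0 of 45 each, limma), with 6 pairs at an unadjusted p under 0.05 in both directions for NAc against PFC, 10 for VMB against PFC and 2 for NAc against VMB. The background was 3.20%, 0.00252% and 0.00606% of all regressions called. Egr3 with Dusp1 came nearest in NAc against PFC (adjusted p = 0.0223), and Fos with Egr3 in VMB against PFC (adjusted p = 0.0574), followed by Arc with Dusp1 (0.0647). The higher median correlation of PFC is therefore a description of these arrays.

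Replicate numbers run from 1 to 20 in the labels and recur across regions, with 18 numbers shared by each pair of regions. The paper used each animal for every region, but the labels do not state that a number marks the same mouse. Over shared numbers 0 of 10 members were called in any region pair (Pearson correlation, with 0.00505% of all probesets called for NAc and PFC, 0.0202% for VMB and PFC and 0.0101% for NAc and VMB), and 1 had an unadjusted p under 0.05. This was Dusp1 between VMB and PFC, with r = 0.751 (permutation p = 0.00138, rho = 0.575, adjusted p = 0.195, 30 relations computed), an r that 26 of 19815 probesets reached. The highest Dusp1 value of PFC (8.78) and of VMB (8.94) both belonged to replicate 10, and the next highest (8.38 and 8.48) both to replicate 19. Without replicates 10 and 19 r was 0.214 (n = 16), so that the relation rests on them. Without replicate 3 it was 0.858. For Fos the same 2 regions gave r = -0.132 with all numbers and 0.586 without replicate 3, and NAc with PFC gave 0.403, 0.656 without replicate 3 and 0.281 without replicate 20. By ranks, Nr4a1 (rho = 0.645, permutation p = 0.00497) and Fos (rho = 0.515, permutation p = 0.0311) also fell under 0.05 between NAc and PFC, among the 30 relations.

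Dusp1 is also a known target of the glucocorticoid receptor, and a list of 13 glucocorticoid-responsive genes was set beside it (Errfi1, Sgk1 and Per1 are also on the activity lists). In VMB all 13 had an r above 0 with Dusp1 (median 0.656, against 0.003 over all tested probesets), and 3 were called, the kinase Sgk1 (r = 0.858, adjusted p = 0.00161), the receptor feedback inhibitor Errfi1 (r = 0.907, adjusted p = 0.00104) and the NF-kB inhibitor Nfkbia (r = 0.862, adjusted p = 0.00211). The only other probeset called with Dusp1 in VMB was Sgk3 (r = 0.845, adjusted p = 0.00299), out of 0.0202% of all. Without VMB replicate 10 the median r of the list was 0.211 and none of the 4 was called, with r of 0.756 for Sgk1, 0.773 for Errfi1, 0.658 for Nfkbia and 0.650 for Sgk3 (adjusted p = 0.0453 to 0.0583). In PFC 9 of 13 had an r above 0 (median 0.551) and 9 had an unadjusted p under 0.05, against 8.96% of all, with 0 called. Without PFC replicate 3 that median was 0.655. In NAc 8 of 13 had an r above 0 (median 0.406) and 5 were called, where 32.6% of all probesets were called with Dusp1.

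Replicate 10 was the highest VMB array for 11 of these 13 genes and among the highest 3 for all 13, against 6.42% and 16.7% of all probesets. In PFC it was the highest for 9 of 13, against 7.11% of all. In VMB it stood above the mean by 1.74 for the cell cycle inhibitor Cdkn1a, 1.73 for Sgk1, 1.59 for the sulfotransferase Sult1a1, 1.18 for the co-chaperone Fkbp5 and 1.18 for Nfkbia, beside 0.96 for Dusp1. In PFC it stood above by 1.38 for Fkbp5, 1.25 for Sult1a1 and 0.64 for Sgk1, beside 0.81 for Dusp1. NAc has no array of this number here. Replicate 19, next highest for Dusp1 in both regions, was 0.94 above the mean for Sgk1 in VMB but below it for Fkbp5 (-0.21) and Sult1a1 (-0.51). The other members of VMB replicate 10 lay between -0.27 (Junb) and 0.18 (Fos) from their means, and Fosb was the lowest of its region there (-0.19).

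**Figure D5:**
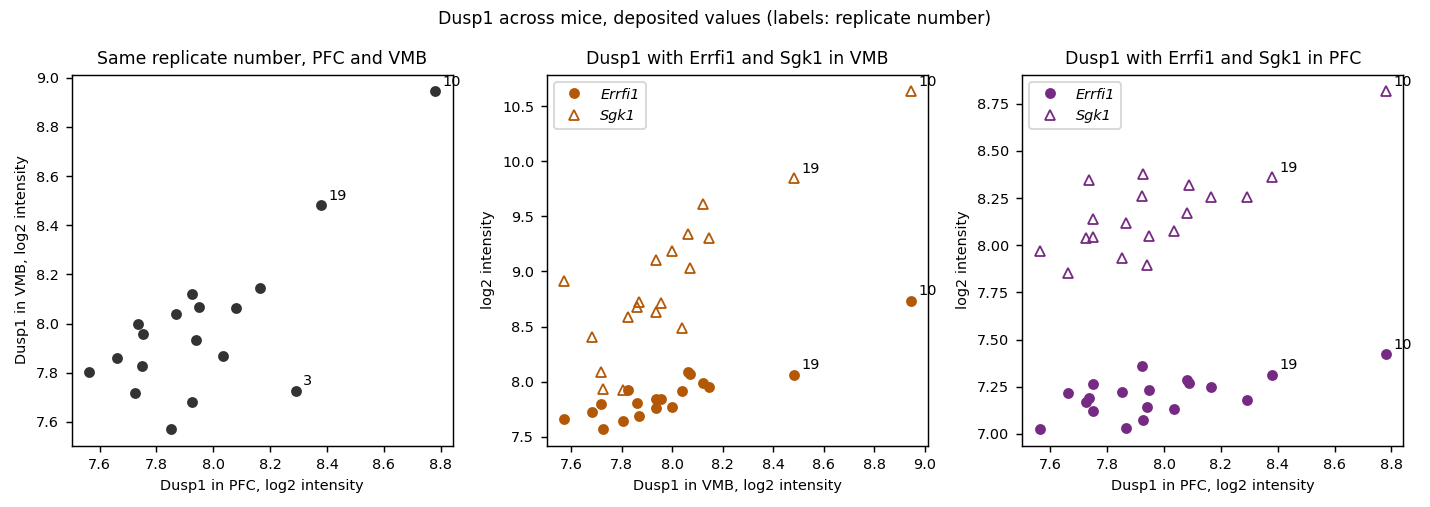
Dusp1 across mice in deposited log2 intensity: Dusp1 in VMB against Dusp1 in PFC for shared replicate numbers (left), and Errfi1 (filled circles) and Sgk1 (open triangles) against Dusp1 in VMB (middle) and PFC (right). Replicate 10 is at the upper end of every series and replicate 19 is next highest for Dusp1 in both regions, and without these the left panel has r = 0.214.

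The genes outside the list whose levels followed the members most closely were found by the median r with the 10 members. In PFC these were Nin (0.703), Rnf227 (0.662), the ERK phosphatase Dusp6 (0.656), Tti2 (0.641) and Gpr19 (0.627). In NAc they were Dpysl5 (0.479), Tle2 (0.459), Dact1 (0.456), Plp2 (0.452) and Spon1 (0.446). In VMB they were Col1a1 (0.361), Usp21 (0.354), Sys1 (0.326), Car11 (0.314) and Iffo1 (0.313). Nin and Dusp6 were also called with Egr1 in PFC (r = 0.849 and 0.789), among 28 probesets, or 0.141% of all. Those called with Fos and with Dusp1 were 1 probeset each, Egr2 and Arc, or 0.00505% of all. Those with Egr2 were 5 probesets (0.0252%), Fos, Klf6 (r = -0.848), Mcm6 (-0.843), Hspb8 (-0.831) and Myhas (0.823). Without PFC replicate 3 the only calls with any member in PFC were Arc and Dusp1 with each other (0.00101% of all regressions).

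Among other genes of the activity response and its upstream regulators, the highest median r with the members was that of Dusp6 (0.656), the calcium-activated kinase Camk4 (0.534) and Btg2 (0.461) in PFC. Their r with the first principal component of the PFC arrays was 0.725, 0.896 and 0.784. PFC replicate 3 stood at 29.6 on that component and the next highest array at 7.79. Dusp6 with Egr1 had r = 0.464 without replicate 3. The lowest median r in PFC was that of Nr4a2 (-0.350), Ccn2 (-0.246) and Crtc2 (-0.240), whose r with the component was 0.183, -0.313 and -0.086. In NAc the highest were Nfil3 (0.356), Inhba (0.334) and Per1 (0.327) and the lowest Myc (-0.297), Cebpb (-0.250) and Penk (-0.196). In VMB the highest were Sik1 (0.240), Plk3 (0.239) and Nfil3 (0.228) and the lowest Nr4a3 (-0.197), Ccn2 (-0.174) and Errfi1 (-0.166). For the 22 other immediate early transcription factors the median of these values was 0.104 in PFC, against 0.025 over all genes, 0.073 against 0.012 in NAc and 0.016 against 0.004 in VMB.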

How the data were processed

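Total RNA from single mice was hybridized to Affymetrix mouse genome arrays. The authors deposited RMA values on the log2 scale, and the labels name GCOS and RMA without versions. The probe-level build is not given in the sources used here. Groups came from sample titles. Probesets reaching 4.5 on at least 1 array were tested (19815, 2811 removed). Of all probesets 20380 carried 1 symbol, 691 several and 1555 none, and a gene was represented by its brightest probeset.

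Region levels were compared with limma after quantile normalization over 57 arrays. Spread was tested on absolute deviations from the region median. Covariation was tested by regressing every probeset on each member within a region. Shared replicate numbers were compared between regions by the Pearson correlation of each probeset, with a t test that was not moderated. All other fits were moderated by empirical Bayes. The p-values were adjusted by the Benjamini-Hochberg method across the tested probesets. Permutation p-values are two-sided, from 100000 permutations. R 4.3.3, limma 3.58.1, statmod 1.5.0, Python 3.11.15 and scipy 1.17.1 were used. The fits of level, spread, covariation, difference in covariation and shared numbers were first tested on simulated data. With 19 separate mice per region as replicates, the number of arrays sets the precision.

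All members are named, with the 5 genes most like them per region and, from the activity and upstream lists, the 3 highest and 3 lowest by median r per region and by level difference per region pair. Genes called with a member were named after their values were seen. The members and lists were chosen with earlier results of these data known. The alternatives without PFC replicate 3, NAc replicate 20 and VMB replicate 10, and those without replicates 1, 10 and 19, were chosen after seeing the data. The same holds for restricting counts, between regions and of pairs, to members at 4.5 on at least 10 arrays per region.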

Additional observations from a re-analysis of the deposited data

How the results depend on the processing

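Values without joint normalization gave 5 called members for NAc against PFC, all higher in NAc, where the median of all differences was 0.72. Of these, 3 were also among the 8 of 10 on the joint scale, Egr2 in the same direction and Egr1 and Nr4a1 in the opposite one. Requiring a difference of more than 1 gave 0 for this pair. For NAc against VMB that requirement gave 4 of 10 members (Junb, Egr1, Nr4a1 and Egr2), all among the 8 called on the joint scale. Without Egr2, which entered the tests through NAc, these were Junb, Egr1 and Nr4a1. In this pair 9.45% of all tested probesets had a difference of at least 1. Deposited values turned the sign for Fosb (0.024), Egr1 (0.48), Nr4a1 (0.18) and Ier2 (0.61) in NAc against PFC, for Egr3 (0.022) and Dusp1 (0.015) in VMB against PFC and for Ier2 (0.33) in NAc against VMB. After subtracting array medians 0 of 30 member differences turned and 27 stayed on their side of the threshold. Ranks, quantile normalization within the region, the first principal component as a covariate, and leaving out the 2 arrays farthest from the median each gave 0 called pairs in NAc and 0 in PFC. The cause was not tested. The replicate block gave 8, 6 and 8 called members for NAc against PFC, VMB against PFC and NAc against VMB and 0 for the spread, the same counts as without it. The numbers did not clearly pair arrays: same-numbered arrays correlated by 0.062 (NAc and PFC), 0.013 (VMB and PFC) and 0.084 (NAc and VMB) on average, and 1, 1 and 2 of 18 arrays were most like their own number. Leaving out PFC replicate 20, or setting no filter, changed no count of called members. Values near or below 4.5 (Fosb, Egr2 and, in VMB, Junb) lie at or below the filter level on some or all arrays. Counting the 8 members at 4.5 on at least 10 arrays of both regions gave 6, 4 and 6 called members in place of 8, 6 and 8.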
